A study of Homo sapiens with 6 samples.

Results

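The genes described here encode the 5 subunits of condensin I (SMC2, SMC4, NCAPD2, NCAPG and NCAPH) and 5 core subunits of cohesin (SMC1A, SMC3, RAD21, STAG1 and STAG2). They were chosen by name, but with earlier results of these data known, as were the other gene lists and the promoter motifs below. All 10 were found among the 19912 rows of the deposited mRNA table. Expression had been measured by RNA sequencing in 6 libraries of Panc-1 cells, a human pancreatic carcinoma line, in a form labelled as resistant to the nucleoside drug gemcitabine. The control group (labelled ctrl) and the group carrying a short hairpin RNA against the splicing factor SRSF3 (labelled shSRSF3) had 3 libraries each, and resistance to gemcitabine was shared by both. The labels do not say what the controls carried, whether the cells were 1 clone, when RNA was taken or whether replicates were separate cultures, so p-values cover only the spread among these 6 libraries, which may be technical. Values are FPKM, fragments counted per kilobase of gene and relative to library size, which can be compared between genes of different length.

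Condensin and cohesin are ring-shaped complexes built around a pair of SMC ATPases, long coiled-coil proteins that dimerise at a hinge and bind ATP at their heads. A kleisin subunit (NCAPH in condensin I, RAD21 in cohesin) closes the ring between the heads, and large helical-repeat subunits bind the kleisin and DNA (NCAPD2 and NCAPG in condensin I, STAG1 or STAG2 in cohesin). Condensin compacts chromosomes in mitosis, while cohesin holds sister chromatids together from replication to anaphase and forms chromatin loops in interphase. STAG2 is a tumour suppressor gene that is inactivated in several human cancers.

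SRSF3, the gene targeted by the hairpin, stood at 37.0, 39.6 and 39.2 FPKM in control libraries 1 to 3 and at 36.95, 37.1 and 38.6 FPKM in those with the knockdown label. The groups overlapped and no fall was detected (log2 change -0.04, 95% interval -0.15 to 0.07, limma adjusted p = 0.612), so the level of SRSF3 mRNA does not bear out the label, and "knockdown library" below means only that a library carries it. Library totals, inferred from the steps between FPKM values, ran from 24558238 to 27351642 fragments. The epithelial markers KRT8, KRT18, KRT19 and EPCAM were abundant, with 5 markers summing to between 3488 and 4611 FPKM per library, while KRT7 was at most 0.241 FPKM. The summed level of 5 fibroblast markers was at most 0.405 FPKM, that of 4 endothelial markers at most 0.277 FPKM and that of 5 leukocyte markers at most 0.0554 FPKM, with PTPRC, LYZ and COL1A2 at 0 in all 6 libraries.

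Condensin and cohesin mRNAs were slightly lower in the libraries labelled knockdown. Of the 10 members, 5 fell and 0 rose at a limma adjusted p under 0.05: NCAPG, SMC4 and NCAPH of condensin I and STAG2 and RAD21 of cohesin. In the whole table, 5.91% of 10823 tested rows were called lower and 10.9% higher. With limma voom on recovered fragment numbers the same 5 members were lower and 0 higher, where 7.04% of rows were called lower. The log2 change was below 0 in all 10 members, against 44.5% of tested rows, and its median was -0.18 in the members and 0.02 over all tested rows. The groups did not overlap in 6 of 10 members, the 5 called genes and SMC1A, each with the knockdown libraries lower, against 15.3% of tested rows with that pattern. All 10 passed the filter of a mean of at least 0.5 FPKM, and each rested on between 1072 and 8659 fragments per library.

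The calls depended on single libraries and on the filter. Without control library 3 or knockdown library 2, 0 of 10 members were called lower, without control library 2 only NCAPG, without the first library of either group the count was 3, and without knockdown library 3 it was 6. With all expressed rows tested and no filter it was 0, with adjusted p between 0.0706 and 0.101 for the 5 genes. The log2 changes moved less. No member changed sign under any of 15 alternatives, and that of NCAPG ran from -0.48 to -0.30. A changed filter, robust empirical Bayes, a replicate block and removal of rows off the FPKM steps cannot alter a member's log2 change. Only the other alternatives could have moved it.

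**Figure D1:**
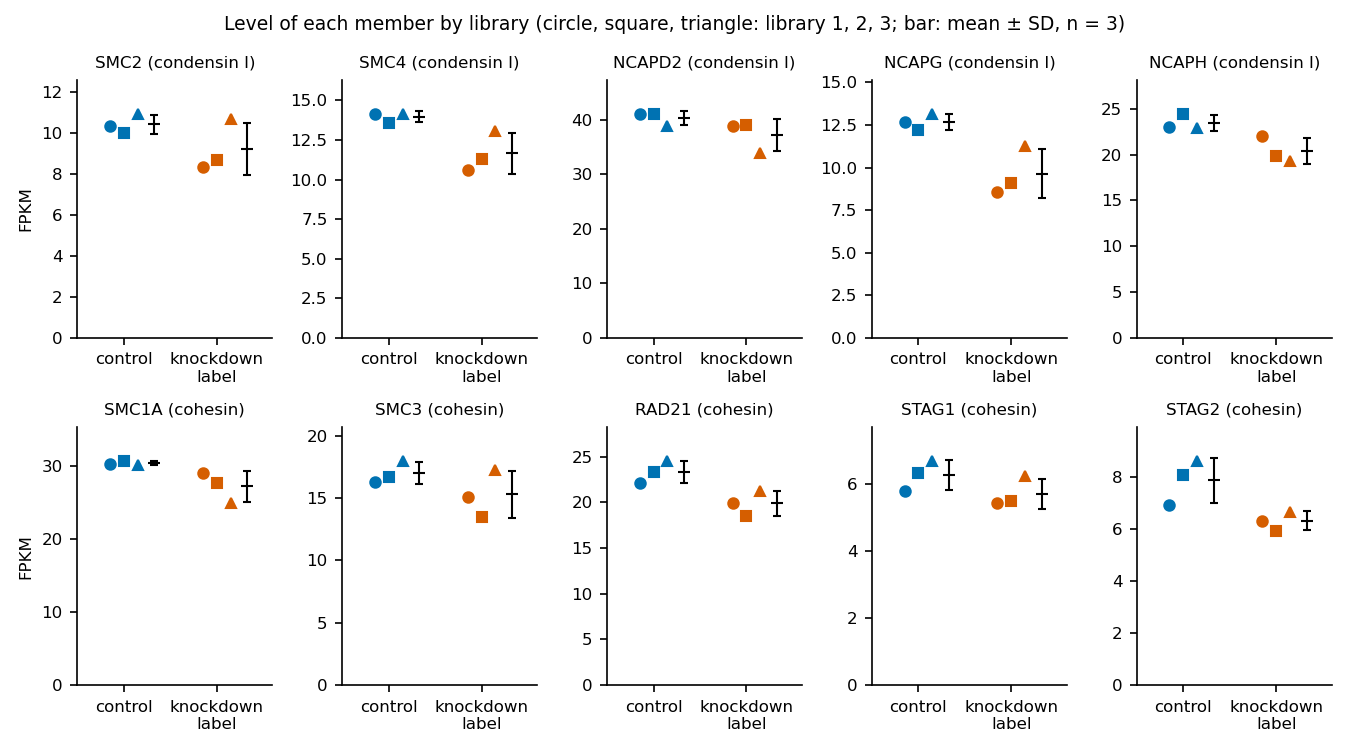
FPKM of the 10 members (vertical axes from 0) in the 3 control and 3 knockdown libraries, one panel per gene, with circle, square and triangle for libraries 1, 2 and 3 and the mean ± SD (n = 3) beside them. The groups are separate for NCAPG, SMC4, NCAPH, SMC1A, RAD21 and STAG2 and overlap for the other four, and the knockdown library marked by the triangle stands apart from the other two in several panels.

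Within condensin I, NCAPG had the largest change of the 10 members. This gene, which encodes a HEAT-repeat subunit, stood at 12.7, 12.2 and 13.2 FPKM in control libraries 1 to 3 and at 8.58, 9.08 and 11.3 FPKM in knockdown libraries 1 to 3. Every knockdown library was below every control, and the third was closest to them. The mean fell by 23.9%, from 12.7 ± 0.489 to 9.64 ± 1.42 FPKM (SD, n = 3). The log2 change, a difference of log2(FPKM + 1), was -0.37 ± 0.08 (SE, limma adjusted p = 0.0161). Only 1.44% of tested rows had a lower log2 change.

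SMC4, one of the paired condensin ATPases, stood at 14.2, 13.6 and 14.2 FPKM in the controls and at 10.6, 11.3 and 13.1 FPKM in the knockdown libraries. The groups were separate, again with the third knockdown library nearest to the controls. The log2 change was -0.25 ± 0.07 (SE, limma adjusted p = 0.0364). Its partner SMC2 gave 10.3, 10.02 and 10.95 FPKM in the controls and 8.33, 8.67 and 10.7 FPKM in the knockdown libraries, so the third knockdown library lay inside the control range. SMC2 did not pass (log2 -0.17, limma adjusted p = 0.181), and without knockdown library 3 it did (log2 -0.27, adjusted p = 0.0106).

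NCAPH, the kleisin of condensin I, stood at 23.1, 24.5 and 22.9 FPKM in the controls and at 22.03, 19.8 and 19.4 FPKM in the knockdown libraries, and here the first knockdown library was nearest to the controls. The log2 change was -0.19 ± 0.06 (SE, limma adjusted p = 0.0455, and 0.0734 without knockdown library 3). NCAPD2, the other HEAT-repeat subunit, was the most abundant member, at 41.1, 41.03 and 38.8 FPKM in the controls and 38.7, 39.04 and 33.8 FPKM in the knockdown libraries. Only the third knockdown library was clearly below the controls, and the gene did not pass (log2 -0.12, 95% interval -0.25 to 0.02, limma adjusted p = 0.217).

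Among the cohesin genes, STAG2 changed most. It stood at 6.91, 8.08 and 8.62 FPKM in the controls and at 6.31, 5.94 and 6.67 FPKM in the knockdown libraries. The groups were separate by a narrow margin, since the first control was low. The mean fell by 19.8%, from 7.87 ± 0.874 to 6.31 ± 0.366 FPKM (SD, n = 3). The difference of log2(FPKM + 1) was -0.28 ± 0.08 (SE, limma adjusted p = 0.0334). Its paralog STAG1, which takes the same place in other cohesin complexes, gave 5.80, 6.33 and 6.70 FPKM in the controls and 5.43, 5.49 and 6.23 FPKM in the knockdown libraries. These ranges overlapped and STAG1 did not pass (log2 -0.12, 95% interval -0.27 to 0.04, limma adjusted p = 0.268).

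RAD21, the cohesin kleisin that separase cuts at anaphase, stood at 22.2, 23.3 and 24.5 FPKM in the controls and at 19.9, 18.5 and 21.2 FPKM in the knockdown libraries. All knockdown libraries were below all controls. The log2 change was -0.22 ± 0.06 (SE, limma adjusted p = 0.0338).

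The cohesin ATPases did not pass. SMC1A gave 30.3, 30.7 and 30.2 FPKM in the controls, the tightest control group of the members, and 29.1, 27.7 and 24.9 FPKM in the knockdown libraries. The groups were separate, but the adjusted p was 0.0951 in limma (log2 -0.16), and 0.0343 without knockdown library 1. SMC3 gave 16.3, 16.7 and 17.99 FPKM in the controls and 15.1, 13.5 and 17.3 FPKM in the knockdown libraries, with the third inside the control range. Its log2 change was -0.15 (limma adjusted p = 0.212), and -0.23 without knockdown library 3 (adjusted p = 0.0272).

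**Figure D2:**
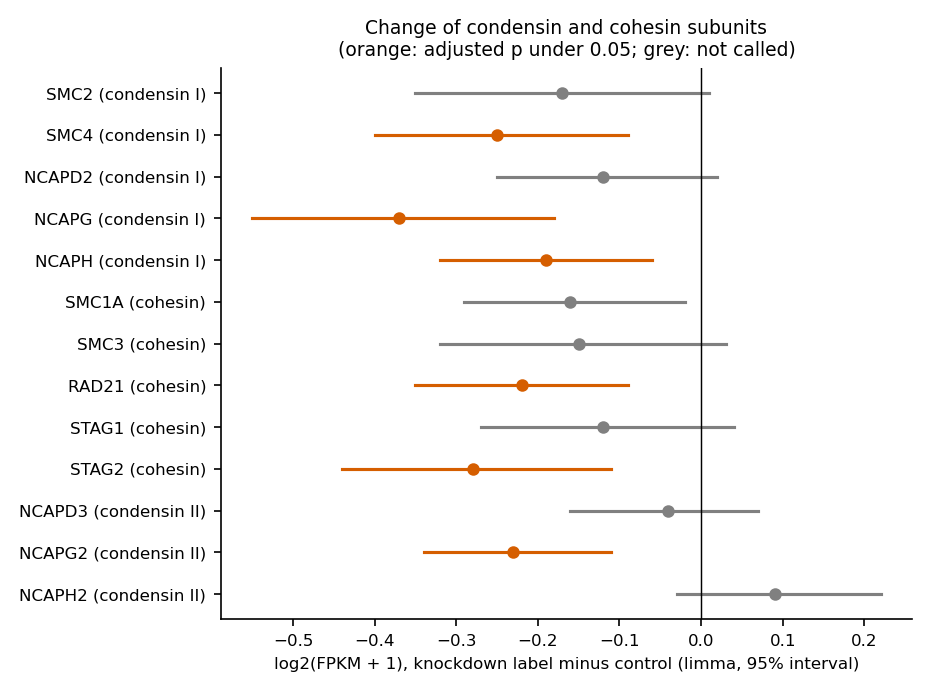
Log2 change of log2(FPKM + 1), knockdown label minus control (horizontal axis), with 95% intervals from limma, for the 10 members and the 3 subunits particular to condensin II (vertical axis). Points of all 10 members lie left of 0, the largest change is that of NCAPG at -0.37, and the condensin II subunits lie between -0.23 and 0.09.

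The order of levels in controls ran from NCAPD2 (40.3 FPKM) and SMC1A (30.4) through NCAPH (23.5), RAD21 (23.3), SMC3 (17.0), SMC4 (13.96), NCAPG (12.7) and SMC2 (10.4) to STAG2 (7.87) and STAG1 (6.28). Between neighbours in this order the ranges of the 3 control libraries overlapped only for NCAPH and RAD21. In the knockdown libraries the means kept that order, but the ranges also overlapped for SMC4 and NCAPG, for NCAPG and SMC2, and for STAG2 and STAG1. The SMC3 level was 0.559 ± 0.0318 of the SMC1A level in controls (SD, n = 3).

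STAG1 and STAG2 exclude each other in a cohesin ring, so their ratio was computed in each library. STAG2 over STAG1 was 1.19, 1.28 and 1.29 in controls and 1.16, 1.08 and 1.07 in the knockdown libraries. The groups did not overlap (log2 difference -0.18, exact two-sided permutation p = 0.1, the smallest that 3 against 3 allows, and 0.3 after Benjamini-Hochberg adjustment over the 3 ratios). SMC4 over SMC2 was 1.37, 1.35 and 1.29 in controls and 1.27, 1.30 and 1.22 in the knockdown libraries, which overlapped (exact permutation p = 0.2, adjusted 0.3). SMC3 over SMC1A was 0.539, 0.543 and 0.596 in controls and 0.520, 0.487 and 0.693 in the knockdown libraries. For this pair the knockdown values lay on both sides of the controls (exact permutation p = 1.0, adjusted 1.0).

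**Figure D3:**
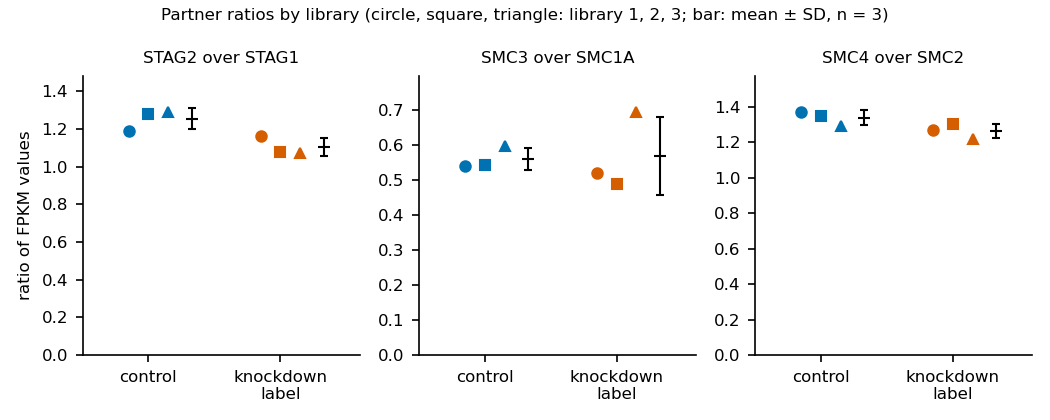
Ratio of the FPKM values of paired or alternative subunits (vertical axes from 0) in each control and knockdown library, with circle, square and triangle for libraries 1, 2 and 3 and the mean ± SD (n = 3). STAG2 over STAG1 is lower in all 3 knockdown libraries, and SMC3 over SMC1A is highest in knockdown library 3 at 0.693.

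The members did not all move alike across the knockdown libraries. SMC2, SMC4, NCAPG, SMC3, RAD21, STAG1 and STAG2 were all highest in knockdown library 3 among the 3, by 0.11 to 0.32 over the mean of libraries 1 and 2 (log2). NCAPD2, NCAPH and SMC1A were lowest in that library, with differences of -0.20, -0.11 and -0.18 from the mean of libraries 1 and 2 (log2). The same members were also lowest among the controls in control library 3 (38.8, 22.9 and 30.2 FPKM). SMC2, NCAPG, SMC3, RAD21, STAG1 and STAG2 were highest in that control, while SMC4 gave 14.17, 13.57 and 14.16 FPKM in controls 1 to 3. Among all tested rows, 31.2% were highest and 41.6% lowest in knockdown library 3. This grouping was noticed in the values and was not tested.

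It follows neither complex: each side holds subunits of condensin I and of cohesin. Over the 6 libraries, Pearson's r of log2(FPKM + 1) was 0.99 between SMC4 and NCAPG, 0.94 between SMC2 and SMC4 and 0.96 between RAD21 and STAG2. It was 0.93 between NCAPD2 and SMC1A, but -0.21 between NCAPD2 and SMC2 and 0.10 between SMC1A and SMC3. These coefficients share the same 6 libraries and include the difference between groups, so they are given as a description. The 3 members lowest in knockdown library 3 were the most abundant in controls, where NCAPH and RAD21 did not differ in range.

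**Figure D4:**
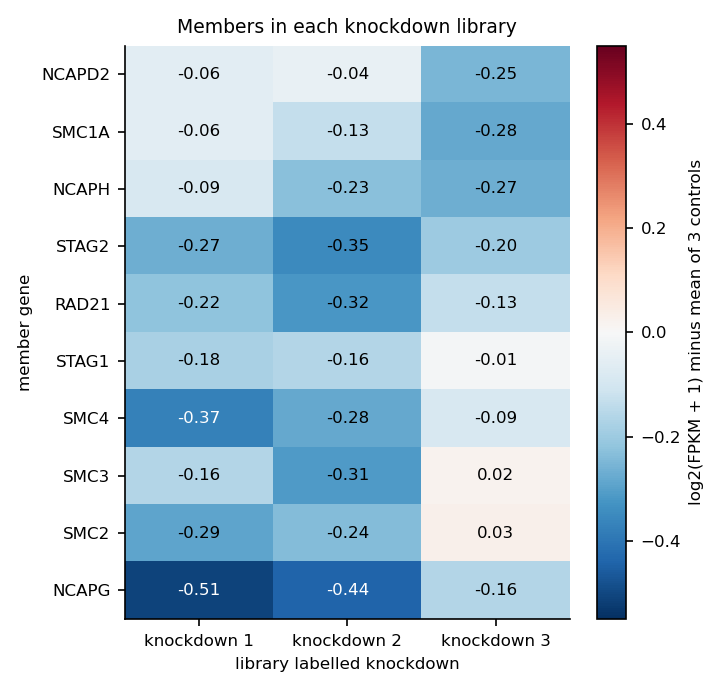
Difference of log2(FPKM + 1) between each knockdown library (columns) and the mean of the 3 controls, for the 10 members (rows), coloured from blue (lower) to red (higher) with the value in each cell. NCAPD2, SMC1A and NCAPH are lowest in knockdown library 3, while the other seven are lowest in library 1 or 2, NCAPG reaching -0.51.

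Transcripts from mitochondrial DNA moved with the groups in part. Their 13 mRNAs summed to between 70370 and 74760 FPKM in the controls and to 108100, 84710 and 73650 FPKM in knockdown libraries 1 to 3. The summed level of the 10 members was 182.8, 186.4 and 188.0 FPKM in the controls and 164.2, 159.1 and 164.5 FPKM in the knockdown libraries. In knockdown library 3 the mitochondrial sum was inside the control range. SMC2, SMC3 and STAG1 were near their control means in that library (log2 0.03, 0.02 and -0.01 from them). SMC4, NCAPG, RAD21 and STAG2 were still below theirs (-0.09, -0.16, -0.13 and -0.20). NCAPD2, NCAPH and SMC1A were lower there than in knockdown libraries 1 and 2 (-0.25, -0.27 and -0.28 from the control mean). The 7 immediate early genes fixed as signs of handling summed to between 113.7 and 121.2 FPKM in the controls and between 140.5 and 144.6 FPKM in the knockdown libraries, with JUN, EGR1 and IER2 called higher (limma adjusted p = 2.73e-04, 0.00203 and 0.00863). The part of either group of transcripts in the members' result was not tested. In bulk RNA, fewer dividing cells and less mRNA in each of them cannot be told apart.

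Of 12 mitotic partners of condensin and cohesin, 6 fell and 0 rose, with a median log2 change of -0.20. TOP2A, the topoisomerase that works beside condensin on mitotic chromosomes, fell from 43.2 ± 3.52 to 28.8 ± 2.95 FPKM (SD, n = 3, log2 -0.57, against -0.37 for NCAPG). MKI67, whose protein coats mitotic chromosomes, fell by 0.36 and CDK1, the kinase that activates condensin, by 0.35 (log2, limma adjusted p = 0.00347 and 0.00856). INCENP, of the chromosomal passenger complex, fell by 0.23 (adjusted p = 0.0231), and was not called when control 1 (0.0846), control 2 (0.0649) or knockdown 2 (0.0553) was left out or with no filter (0.0595). AURKB and CCNB2 were the other calls (log2 -0.24 and -0.25, limma adjusted p = 0.0349 and 0.0378). Both were lost with no filter and without control 1, 2 or 3 or knockdown 2, and CCNB2 also without knockdown 3 (adjusted p from 0.097 to 0.107 for AURKB and from 0.066 to 0.149 for CCNB2). The count of 6 was 3 when control 1, control 2 or knockdown 2 was left out, 4 without control 3, 8 without knockdown 1, 5 without knockdown 3, 3 with no filter and 10 with quantile normalization. PLK1 and CCNB1 were not called (log2 -0.09 and -0.13, limma adjusted p = 0.247 and 0.116), but they were with quantile normalization (log2 -0.16 and -0.24, adjusted p = 0.0235 and 0.00578).

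Condensin II shares SMC2 and SMC4 with condensin I and differs in its other subunits. Of these 3, NCAPG2 fell from 15.01 ± 0.363 to 12.7 ± 0.629 FPKM (SD, n = 3, log2 -0.23, limma adjusted p = 0.0177), and was not called when control 2 (0.0669), control 3 (0.0836) or knockdown 2 (0.0676) was left out. NCAPD3 gave 13.5 ± 0.477 and 13.02 ± 0.585 FPKM (adjusted p = 0.599), and NCAPH2 26.3 (SD 0.0837) and 28.1 FPKM, the latter with an SD of 2.0 (adjusted p = 0.273). Of the genes for matching subunits, NCAPG and NCAPG2 were both called lower and NCAPD2 and NCAPD3 were both not called. NCAPH was called lower and NCAPH2 was not (log2 0.09). The NCAPH2 groups were separate by a very narrow margin, with knockdown library 3 at 26.37 FPKM and control library 2 at 26.34 FPKM. Whether the 2 complexes differ in their change was not tested.

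Most regulators of cohesin did not pass. Of 7 genes of loading and release, 0 were called, 2 (CDCA5 and PDS5A) had an unadjusted limma p under 0.05, and voom called 1, with a median log2 change of -0.13. CDCA5 (sororin), which protects cohesion after replication, had the smallest adjusted p of 0.0635 (log2 -0.15), followed by PDS5A, a cohesin-bound regulator (log2 -0.22, adjusted p = 0.0793). PDS5A was called with voom (adjusted p = 0.0470) and without knockdown 3 (0.00601), and CDCA5 with quantile normalization (0.0069) and at a mean of at least 5 FPKM (0.0492). The loader NIPBL stood at 2.92 ± 0.163 and 2.57 ± 0.231 FPKM and the release factor WAPL at 16.1 ± 0.798 and 14.9 ± 0.292 FPKM. CTCF, which stops loop extrusion by cohesin, stood at 14.1 ± 0.391 and 14.3 ± 1.08 FPKM (limma adjusted p = 0.873).

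ESCO2, the acetyltransferase that locks cohesin during replication, fell by 27.4%, from 3.02 ± 0.313 to 2.19 ± 0.416 FPKM (SD, n = 3). The difference of log2(FPKM + 1) was -0.34 (limma adjusted p = 0.0364). The call was lost with no filter (0.123) and without any 1 of 5 libraries (0.0638 to 0.144), all but knockdown library 3. Neither ESCO1 nor the deacetylase HDAC8 was called (limma adjusted p = 0.444 and 0.347), though ESCO1 was without knockdown library 3 (log2 -0.18, adjusted p = 0.0456). Separase (ESPL1), the protease that cleaves RAD21, fell by 28.1%, from 12.4 ± 0.428 to 8.91 ± 0.325 FPKM (log2 -0.43, limma adjusted p = 9.06e-04). This call held under all 15 alternatives. Its inhibitor securin (PTTG1) did not pass (19.6 ± 0.771 and 21.2 ± 3.45 FPKM, adjusted p = 0.473), and neither did the cohesin protectors SGO1 and SGO2 (log2 -0.18 and -0.17, adjusted p = 0.061 and 0.175), both of which were called without knockdown library 3 (0.0496 and 0.0279).

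The related SMC5/6 complex, which acts in DNA repair, had 0 lower and 1 higher of 7 tested genes. Over all tested rows, 5.91% were called lower and 10.9% higher, so so few genes show no departure from the table as a whole. NSMCE1, its RING subunit, rose from 8.21 ± 0.432 to 10.05 ± 0.615 FPKM (SD, n = 3, log2 0.26, limma adjusted p = 0.0177), and was not called with no filter (0.0519) or when control 1 (0.065), control 2 (0.075) or knockdown 2 (0.0619) was left out. SMC5 and SMC6 stood at 7.11 and 2.20 FPKM in the controls and 6.31 and 2.09 FPKM in the knockdown libraries and did not pass (limma adjusted p = 0.199 and 0.625). The meiotic cohesin genes SMC1B, RAD21L1, REC8 and STAG3 were at most 0.302 FPKM in every library and were not tested.

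Promoter sequences were looked at because 5 members were called lower, and none higher. The table of RefSeq promoters (GRCh38.p14, 250 bases before to 50 after the annotated start) held 9 of the 10 members, all but RAD21. The search covered both strands for TTTGAA and TTCGAA (the CHR, a short element known from promoters of genes expressed in G2 and mitosis), CCAAT (the CCAAT box) and GGCGGGA (a core of sites for E2F factors). The 2 CHR forms differ in 1 base and cannot match at the same place. Upstream parts of 3 promoters are shown, those of the 2 condensin genes and the 1 cohesin gene with the largest changes, with matches in capitals. They lie at chr4:17810729-17810978 (NCAPG), chr3:160399400-160399649 (SMC4) and chrX:123960310-123960559 (STAG2), each on the plus strand.
NCAPG: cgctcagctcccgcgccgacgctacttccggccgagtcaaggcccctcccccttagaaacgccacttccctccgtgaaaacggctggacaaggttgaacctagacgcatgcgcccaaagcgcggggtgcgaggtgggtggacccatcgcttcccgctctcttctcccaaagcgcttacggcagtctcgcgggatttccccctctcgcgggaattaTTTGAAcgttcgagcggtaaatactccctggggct
SMC4: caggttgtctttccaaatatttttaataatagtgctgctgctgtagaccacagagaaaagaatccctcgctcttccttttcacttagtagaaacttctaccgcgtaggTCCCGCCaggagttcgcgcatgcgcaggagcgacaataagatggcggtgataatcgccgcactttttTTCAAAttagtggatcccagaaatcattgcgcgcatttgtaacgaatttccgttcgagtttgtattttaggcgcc
STAG2: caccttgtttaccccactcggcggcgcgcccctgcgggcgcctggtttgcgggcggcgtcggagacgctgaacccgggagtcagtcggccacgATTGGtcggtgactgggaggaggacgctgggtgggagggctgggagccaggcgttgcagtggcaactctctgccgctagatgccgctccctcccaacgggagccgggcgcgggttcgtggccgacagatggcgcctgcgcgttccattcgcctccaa

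The NCAPG window held TTTGAA with its first base 35 bases before the start (at -35), and the SMC4 window held its reverse complement at -75 and that of GGCGGGA at -142. The STAG2 window held neither form of the CHR, only CCAAT on the opposite strand at -157. TTTGAA was in 5 of 9 member promoters, those of NCAPG, SMC4, SMC2 (at -3), NCAPD2 (at -145) and SMC3 (at -151), against 15.4% of 27305 promoters in the table. That is 4 of the 5 condensin I genes, of which NCAPG and SMC4 were called lower and SMC2 and NCAPD2 were not. TTCGAA was in 0 of 9 (1.45% of all), CCAAT in 4 of 9 (NCAPD2, NCAPH, STAG1 and STAG2, against 35.7%) and GGCGGGA in 2 of 9 (SMC4 and STAG1, against 15.5%). NCAPD2 held CCAAT 4 times, at -199, -170, -70 and -30. A match of letters does not show a bound site. Windows of 300 bases ranged in GC content from 47.7% for SMC4 to 71.3% for STAG1.

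Genes for factors known to act through the CHR and E2F elements were called in both directions, 2 lower and 1 higher of 11 tested. The shares over all tested rows were 5.91% lower and 10.9% higher. Genes for factors that bind the CCAAT box were not examined. Of 11 tested genes of the DREAM and FOXM1 regulators, MYBL2 fell from 57.1 ± 1.19 to 43.1 ± 4.52 FPKM (SD, n = 3, log2 -0.40, limma adjusted p = 0.0049) and RBL1 by 0.31 (log2, adjusted p = 0.0244). E2F1 rose by 0.23 (adjusted p = 0.0236), and FOXM1 stood at 52.2 ± 2.59 and 49.8 ± 4.01 FPKM (adjusted p = 0.492). The RBL1 call was lost with no filter (0.0863) and when control 2 (0.0898), control 3 (0.102), knockdown 1 (0.0528) or knockdown 2 (0.0923) was left out. The E2F1 call was lost with no filter (0.0602), quantile normalization (0.0945) and when control 2 (0.125), control 3 (0.0851) or knockdown 2 (0.0889) was left out.

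Among the genes closest in pattern to the mean centred profile of the 5 condensin I subunits were DIS3L, RMI1, KIF23 and UGCG. Pearson's r with that profile lay between 0.994 and 0.997 over the 6 libraries, among 2936 candidate rows. The subunits themselves did not share a single pattern. For NCAPD2, r was 0.78 with NCAPH but -0.21 with SMC2, 0.13 with SMC4 and 0.16 with NCAPG. RMI1, of the complex that dissolves recombination intermediates, went from 7.18, 7.02 and 7.13 FPKM in the controls to 5.35, 5.60 and 6.27 FPKM in the knockdown libraries. KIF23, a kinesin of the central spindle, went from 9.86, 9.88 and 9.82 to 7.76, 7.99 and 8.52 FPKM. For the mean cohesin profile the closest genes were GOLGA5, RFC1, SRSF10, APPL1 and CDC5L (r between 0.979 and 0.990). Among the cohesin subunits, r was 0.96 between RAD21 and STAG2 but 0.10 between SMC1A and SMC3. RFC1, of the clamp loader that acts at replication forks, went from 12.3, 12.9 and 14.1 FPKM in the controls to 11.1, 9.89 and 11.9 FPKM in the knockdown libraries. Likeness was ranked over 6 points that include the group difference, and is a description.

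Antisense transcripts of members were near 0. RAD21-AS1 stood between 0.0779 and 0.243 FPKM and SMC2-AS1 between 0 and 0.0288 FPKM in the lncRNA table, far below their partner genes, whose reads they could share because the sources do not say whether counting used strand.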

How the data were processed

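The authors deposited FPKM values per gene symbol for 6 libraries, per the file headers, in a table of mRNAs (19912 rows) and one of lncRNAs (14145 rows). The tools listed per the submitters' processing notes, without role or version, are edgeR, Cuffdiff, StringTie and HISAT2; for genome build, annotation and filters nothing is stated in the labels. Library totals were inferred from the FPKM steps of low lncRNA rows and refined on mRNA rows. With these totals, whole fragment numbers were recovered from the FPKM steps for 14776 of 14803 mRNA rows above 0 in at least 3 libraries (tolerance 0.003 fragments), the 10 members among them. Of the 27 rows off these steps, none named here, those that passed the filter on low values stayed in the main test.

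Rows of the mRNA table averaging 0.5 FPKM or more were log-transformed as log2(FPKM + 1) and tested with limma 3.58.1 in R 4.3.3 (trend, two-sided, Benjamini-Hochberg over all 10823 tested rows, threshold 0.05) and without rescaling; fold changes on this scale understate those of low genes. Calls of voom used the recovered fragments. Python 3.11.15 did the rest. The scripts were tested on simulated data with a set spread between libraries. There limma called 51 of 100 changes of fold 1.2 and 97 of 100 of fold 1.5, so small changes can go uncalled. Members, gene lists and motifs were chosen with earlier results of these data known. Beside members, up to 4 genes per list with the smallest p and the 5 most alike per complex (mean of at least 5 FPKM, SD of at least 0.1) could be named, and not all are; KRT7, JUN, EGR1, IER2 and others were named for their levels after their values were seen. Deviations of same-numbered libraries from their group means correlated by 0.078, 0.039 and 0.279, the last being the highest of all. Those of differently numbered libraries correlated by -0.212 to 0.153. The main test did not take the numbers as pairs, and a replicate block was among the alternatives. Whether same-numbered libraries share a batch was not tested.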

Additional observations from a re-analysis of the deposited data

How the results depend on the processing

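The alternatives were a pseudocount of 0.1, no filter, a mean of at least 5 FPKM, robust empirical Bayes, median scaling, a replicate block, quantile normalization, voom, removal of rows off the fragment steps, and each library left out. With no filter, 0 members were lower and 960 genes were called in all, against 5 and 1819; the cause was not tested. Leaving out 1 library gave 0 to 6 members lower and 643 to 2742 genes called. Of the alternatives with all 6 libraries, the 8 others kept all 5 called members, and quantile normalization added NCAPD2 and SMC1A (7 in all). No member was called higher under any of the 15. With the replicate block 5 members were lower, as without it, and 2323 genes were called. The block also called CDCA5 and PDS5A lower (adjusted p = 0.0406 and 0.0323; 0 to 2 of the loading and release genes), and 2 against 1 DREAM and FOXM1 regulators, 1 against 0 epithelial markers and 6 against 2 mitochondrial mRNAs higher. Calls were split as 1179 higher and 640 lower, but as 817 and 808 after quantile normalization. The log2 difference of SMC3 over SMC1A, 0.00 with all libraries, ran from -0.15 to 0.10 with 1 library left out and was negative without control library 1 or 2 or knockdown library 3. With 3 libraries a group and 1072 fragments or more behind each member, the spread between libraries limits the precision.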
